A study of Mus musculus with 24 samples.

Results

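Type I interferon-stimulated genes were followed in bulk RNA-seq of T cells sorted from mouse tumours. The 41 genes were chosen by name, as the rows of the count table whose symbol is on a list of classical targets of type I interferon, out of 54957 gene rows. All 41 were in the table, 40 had counts, and Trex1, a DNA exonuclease, had 0 counts in all 24 libraries. The mice carried B16F10-OVA tumours, a melanoma line that bears ovalbumin as a model antigen, and received 200 µg of antibody, which was anti-PD-1, anti-JAML or an isotype control. At 1 day after the dose, CD8+ T cells and CD4+FOXP3+ regulatory T (Treg) cells were sorted from the tumours, each library from fewer than 400 cells. With both populations and the 3 antibodies this gave 6 groups of 4 libraries. The sources used here do not give the strain, genotype or age of the mice. Nor do they say that the libraries of a group are separate mice, so the spread behind each p-value is that of these libraries and could be technical.

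Type I interferons bind a receptor made of IFNAR1 and IFNAR2, whose kinases JAK1 and TYK2 phosphorylate STAT proteins. Of these, STAT2 brings IRF9 into the complex ISGF3, which binds interferon-stimulated response elements in the promoters of the genes described here. The products block viral entry, translation, replication and release, sense foreign nucleic acid, or turn the pathway up (IRF7) or down (USP18). In tumours, T cells that receive type I interferon express the same set of genes without any virus. PD-1 restrains T cells after activation, while JAML, a junctional adhesion molecule, can act as a costimulatory receptor.

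Libraries ranged from 11170918 to 22556460 total counts (median 16238787). The sorted populations carried their markers. Cd8a and Cd8b1 summed to between 1792 and 2914 CPM (counts scaled to library size, with scaling factors set over all 24 libraries) in the CD8 libraries and to between 12.7 and 49.0 CPM in the Treg libraries. Foxp3 had 0 counts in every CD8 library. Several libraries stood apart. Mitochondrial genes took 6.89% of CD8 anti-JAML library 4, the highest share of the 24. The 12 listed macrophage and monocyte markers summed to 466 CPM in CD8 anti-JAML library 2, and to 784 and 1228 CPM in Treg anti-PD-1 libraries 1 and 4. Haemoglobin and other erythroid transcripts summed to 1439 CPM in Treg anti-JAML library 4, 682 in Treg anti-PD-1 library 1, 503 and 397 in CD8 anti-JAML libraries 2 and 4 and 264 in CD8 isotype library 3, against at most 9.26 CPM in the other libraries. Member medians that rest on CD8 anti-JAML libraries 2 and 4 or Treg anti-PD-1 libraries 1 and 4 are given with and without that pair. Counts of members called different, without overlap or on either side of 0 are given again for each comparison where they changed. For Treg anti-JAML library 4 and CD8 isotype library 3, the medians of the members without each are given beside the comparisons that hold them.

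The promoters of several of these genes hold letters that match the core of the interferon-stimulated response element. Of these, 6 are shown, all of genes whose values are given below. Whether the values depend on these letters was not tested. The sequences are RefSeq promoters of build GRCm38.p6, written from 5′ to 3′ on the strand of the gene. Capitals mark matches of the motif, which is GAAA, any 2 bases and GAAA again, or TTTC, any 2 bases and TTTC where the match is on the other strand. Adjoining matches can overlap. Of the 41 genes 31 had a promoter entry. The motif lay in the 250 bases before a start in 10 of these 31 (32.3%), against 936 of all 27025 genes with an entry (3.46%), on either strand. The 10 were Bst2, Ifit1, Ifit3, Ifit3b, Isg15, Oas1a, Oas3, Rsad2, Stat2 and Trim30a.
Bst2 (chr8:71537557-71537626, minus strand): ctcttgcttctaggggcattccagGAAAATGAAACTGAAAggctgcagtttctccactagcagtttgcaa
Ifit1 (chr19:34640774-34640843, plus strand): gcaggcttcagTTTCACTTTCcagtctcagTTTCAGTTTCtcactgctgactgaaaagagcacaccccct
Ifit3 (chr19:34583373-34583446, plus strand): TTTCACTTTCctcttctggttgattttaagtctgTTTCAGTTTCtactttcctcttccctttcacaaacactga
Isg15 (chr4:156200845-156200914, minus strand): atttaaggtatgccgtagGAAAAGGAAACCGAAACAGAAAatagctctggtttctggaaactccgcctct
Oas3 (chr5:120777695-120777764, minus strand): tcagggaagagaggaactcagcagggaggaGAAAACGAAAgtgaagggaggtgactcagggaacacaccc
Trim30a (chr7:104465194-104465259, minus strand): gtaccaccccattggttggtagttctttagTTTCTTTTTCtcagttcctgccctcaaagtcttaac
The windows of Ifit3 and Ifit3b had the same letters. The search used these letters alone, so a gene without a match is only without these letters in this window.

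The members were spread over 17 chromosomes, with families side by side. In build mm10, as given by GENCODE M21, the IFIT genes lay in a row on the plus strand of chromosome 19, among them Ifit3 (chr19:34583531-34588731), Ifit3b (chr19:34607970-34613401) and Ifit1 (chr19:34640871-34650009). Bst2 lay on the minus strand at chr8:71534255-71537456 and Irf7 on the minus strand at chr7:141262706-141266481. Some counts cannot be assigned with certainty, because how reads shared between genes were counted is not given in the sources used here. All exonic bases of Trex1 (100%) lie within exons of Atrip on the same strand, and 95.8% of its 50-base stretches occur in Atrip transcripts too. Ifit3 shares 51.2% of its 50-base stretches with other genes, chiefly Ifit3b, and Oas1a shares 57.6%, chiefly with Oas1g. Values of these genes are therefore uncertain.

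Levels between genes were compared on the length-scaled TPM that the authors deposited. Ifi27l2a, a mitochondrial interferon-induced protein, and Ly6e, a membrane protein that restricts viral fusion, stood far above the rest, with means of 7275 and 2008 TPM over the 24 libraries. The next were Rtp4, a receptor chaperone that also restricts flaviviruses, with 270.3 TPM, and Lgals3bp, a secreted glycoprotein, with 267 TPM. Of the 41 genes 34 had over 10 TPM and 10 had over 100 TPM. At the lower end were Ifi44 with 3.66 TPM and Oas2 with 3.17 TPM. In the counts, 32 genes had reads in all 24 libraries, at least 10 in each, and 8 were at 0 in some. Ifi44 was at 0 in 9 libraries, Oas2 in 6, Oasl1 in 5, Isg15 in 4, Oasl2 in 3, Cmpk2 in 2, and Rsad2 and Mx1 in 1 each. A count of 0 allows up to 3 reads, which is between 0.133 and 0.269 CPM in these libraries, for counting error only. CD8 isotype libraries held 13 of these zeros, over 7 genes, and Treg anti-PD-1 libraries held 0.

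**Figure D1:**
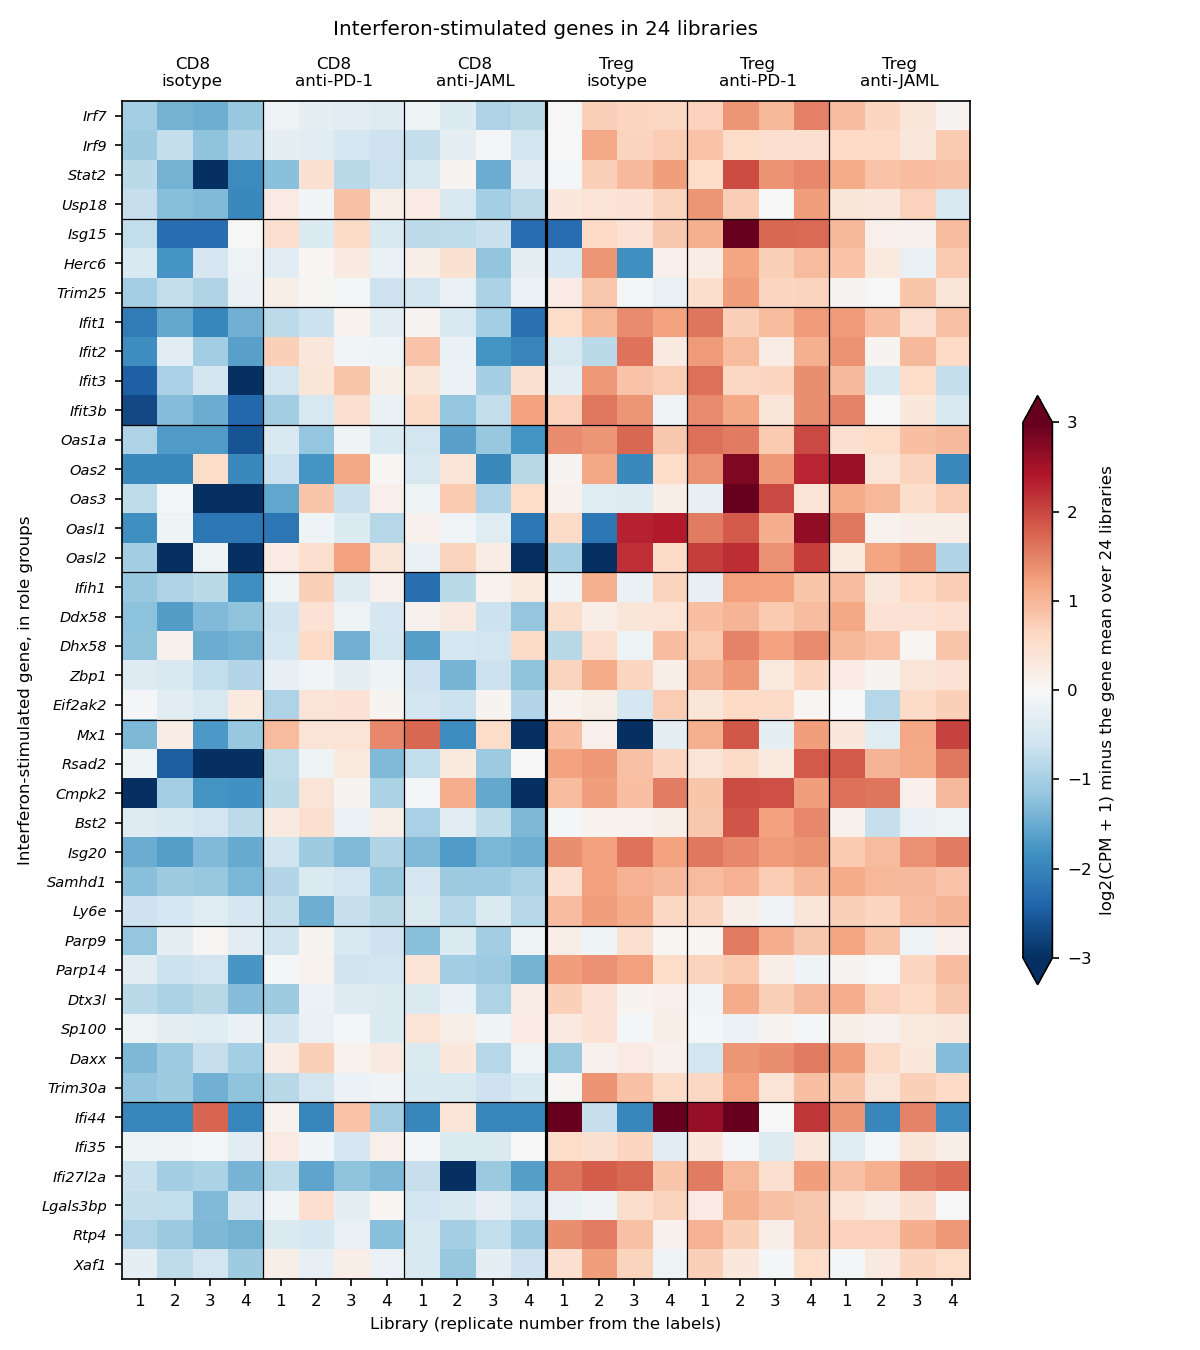
Each column is a library and each row 1 of the 40 genes with counts, grouped by role; colour is log2(CPM + 1) minus the mean of the gene over the 24 libraries, on a scale that ends at -3 and 3. The CD8 isotype columns sit lowest for most genes (lowest group mean for 30 of 40), and the Treg anti-PD-1 columns sit highest for most (29 of 40).

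The lowest and the highest of the 6 groups were the same for most genes. CD8 cells after isotype had the lowest group mean for 30 of 40 genes, and Treg cells after anti-PD-1 the highest for 29 of 40. The mean log2 CPM over the 40 genes was 4.12 ± 0.22 in CD8 cells after isotype, 4.77 ± 0.43 after anti-JAML and 5.27 ± 0.17 after anti-PD-1 (SD, n = 4). In Treg cells it was 5.99 ± 0.18 after isotype, 6.11 ± 0.27 after anti-JAML and 6.61 ± 0.27 after anti-PD-1. The isotype and anti-JAML means of Treg cells differed by less than their spread. In bulk RNA, fewer cells with a transcript and less of it per cell cannot be told apart.

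In CD8 cells, anti-PD-1 was compared with isotype. No gene passed the threshold, an adjusted p under 0.05 in edgeR's quasi-likelihood test over all 12648 genes tested (0 of 40 members, and 0% of all genes). The members nevertheless lay to one side. Of 40, 36 had a positive fold change, against 53% of all genes, and their median was 0.88 on the log2 scale, against 0.036 for all genes. Overlap was judged on CPM scaled within the libraries of a comparison. The groups did not overlap, with every anti-PD-1 library above every isotype library, for 19 members, against 3.81% of all genes, and 1 member, Ly6e, was lower without overlap, against 3.26%. At an unadjusted p under 0.05 there were 19 higher members (4.06% of all genes) and 0 lower (1.55%). DESeq2, run as an alternative, called 4 members, among them Irf7, Usp18 and Daxx, and 0.174% of all genes. Genes detected per library moved with the antibody, from 14095 ± 209.7 after isotype to 14841 ± 394 after anti-PD-1 (SD, n = 4), and with that number as a covariate the median of the members was 0.84. Without isotype library 3 the median was 0.78, with 20 members higher without overlap, against 4.97% of all genes.

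Of the 4 regulators of the pathway, 3 parted the anti-PD-1 from the isotype libraries. Irf7, which amplifies interferon production, stood at 63.7, 48.3, 46.5 and 58.6 CPM after isotype, 116, 106, 103 and 99.6 with anti-PD-1 and 117, 96.99, 67.6 and 74.2 with anti-JAML. Every library of either antibody lay above the isotype libraries. The fitted difference from isotype was 0.97 ± 0.20 (log2, SE) for anti-PD-1 (adjusted p = 0.831, and 0.0191 in DESeq2) and 0.70 ± 0.20 for anti-JAML (adjusted p = 0.301). Irf9, the DNA-binding subunit of ISGF3, stood at 66.99, 85.2, 60.2 and 74.3 CPM after isotype, 114, 111, 97.01 and 90.8 with anti-PD-1 and 85.5, 115, 136 and 96.1 with anti-JAML. Both antibody groups again lay above isotype without overlap, by 0.53 ± 0.19 and 0.58 ± 0.19 (adjusted p = 0.865 and 0.339).

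Usp18, the protease that removes ISG15 from proteins and also blocks the receptor, stood at 28.7, 18.9, 18.4 and 11.7 CPM after isotype, 56.1, 44.4, 87.6 and 53.9 with anti-PD-1 and 55.95, 33.8, 22.7 and 26.9 with anti-JAML. The anti-PD-1 libraries were all above isotype, and the anti-JAML libraries overlapped both other groups. Against isotype the difference was 1.64 ± 0.36 for anti-PD-1 (adjusted p = 0.831, and 0.0223 in DESeq2) and 0.83 ± 0.36 for anti-JAML (adjusted p = 0.403). Stat2, which binds IRF9 in ISGF3, stood at 17.7, 11.3, 2.16 and 7.75 CPM after isotype, 12.6, 44.03, 17.7 and 19.8 with anti-PD-1 and 22.5, 33.6, 10.7 and 25.4 with anti-JAML. Its groups overlapped, with differences of 1.28 ± 0.59 and 1.23 ± 0.59 from isotype.

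**Figure D2:**
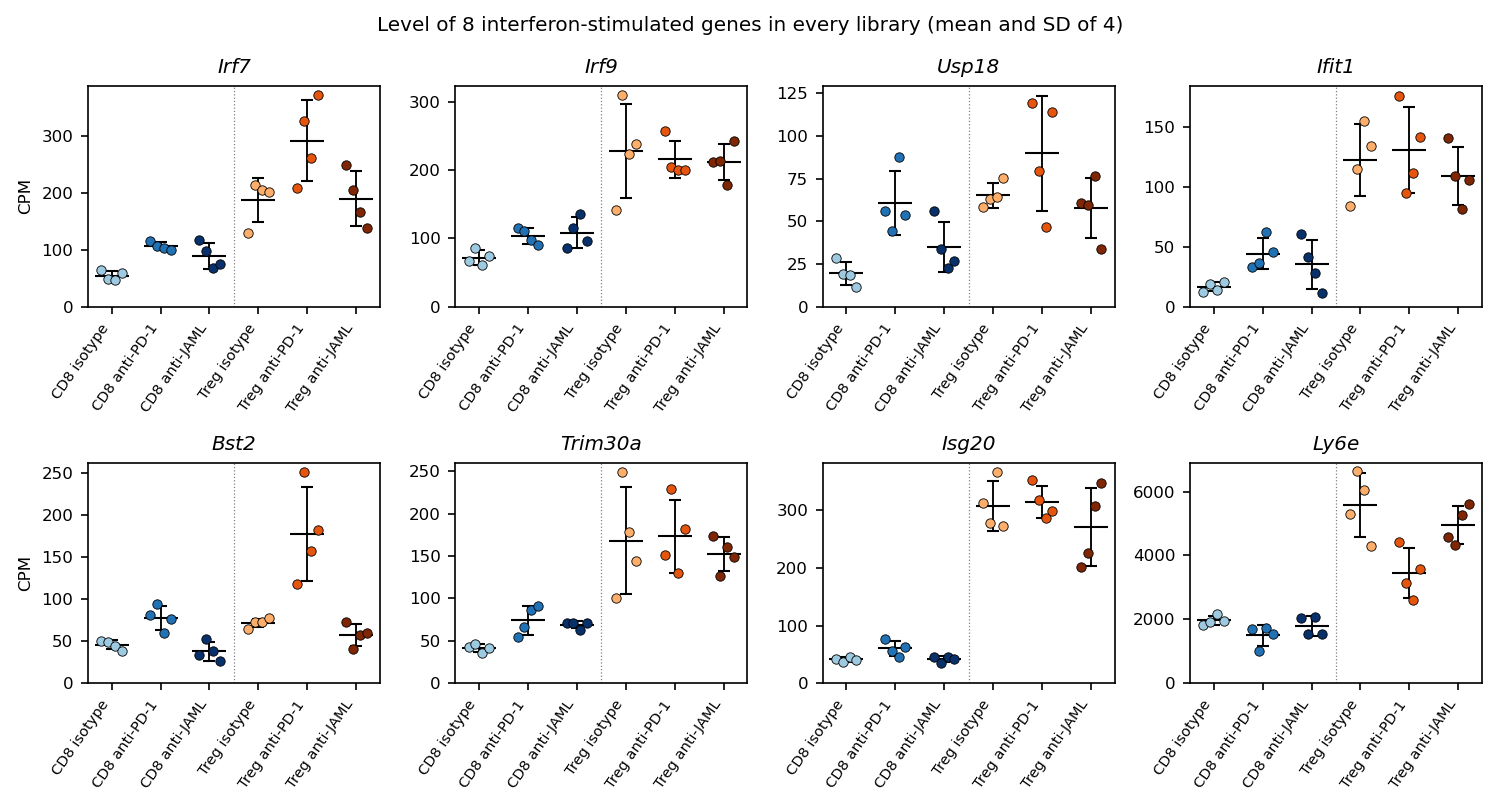
Each point is the CPM of a gene in 1 library, in 6 groups; the long bar is the mean and the whiskers the SD of 4 libraries, and each axis starts at 0 with its own scale. Irf7, Irf9, Usp18, Ifit1, Bst2 and Trim30a have all CD8 anti-PD-1 points above the CD8 isotype points. Isg20 does too, narrowly (lowest 46.2 against highest 45.97 CPM), and Ly6e has them all below. Isg20 and Ly6e differ more between CD8 and Treg cells.

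The IFIT family, which binds foreign RNA and halts its translation, was the group where every member parted the anti-PD-1 from the isotype libraries (4 of 4 without overlap, with fold changes from 1.41 to 1.85). Ifit1 stood at 12.5, 19.1, 13.9 and 20.6 CPM after isotype, 32.8, 35.9, 61.8 and 45.8 with anti-PD-1 and 60.3, 41.2, 27.7 and 11.4 with anti-JAML. Its anti-JAML libraries ran from below the isotype range to the level of the anti-PD-1 libraries. The differences were 1.42 ± 0.43 (adjusted p = 0.856) and 1.08 ± 0.42 (adjusted p = 0.377). Ifit3 stood at 9.09, 27.2, 37.1 and 3.21 CPM after isotype, 37.02, 70.4, 97.8 and 61.9 with anti-PD-1 and 69.99, 48.3, 26.9 and 75.2 with anti-JAML. On the scale of the 12 CD8 libraries the anti-PD-1 and isotype groups did not overlap, while on the printed scale the lowest anti-PD-1 library and the highest isotype library were level, at 37.02 and 37.1 CPM. The differences were 1.81 ± 0.60 and 1.52 ± 0.60. Ifit3b, its near copy, stood at 1.85, 6.65, 5.64 and 2.66 CPM after isotype, 8.06, 12.5, 25.05 and 15.2 with anti-PD-1 and 27.00, 7.43, 10.5 and 42.5 with anti-JAML. All anti-JAML libraries were above isotype, and the difference of 2.38 ± 0.64 had the smallest p of the members there (adjusted p = 0.29, and 0.0173 in DESeq2).

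The ISG15 system tags proteins with a ubiquitin-like modifier. Isg15, the modifier itself, was low in CD8 cells, at 1.94, 0, 0 and 3.94 CPM after isotype, 5.94, 2.66, 6.22 and 2.54 with anti-PD-1 and 1.82, 1.89, 2.07 and 0 with anti-JAML. Its fold change of 1.56 ± 1.59 for anti-PD-1 came with an SE larger than itself, and the groups overlapped. Herc6, the ligase that attaches ISG15 in mice, and Trim25, a ligase that activates RIG-I, had differences of 0.62 ± 0.44 and 0.60 ± 0.31.

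The OAS family makes the messenger that activates RNase L. All 5 members had positive fold changes after anti-PD-1, from 1.04 to 2.26, and 1 of them, Oasl2, parted the groups. Oasl2 stood at 3.97, 0.240, 8.22 and 0 CPM after isotype, 11.2, 13.3, 22.7 and 12.2 with anti-PD-1 and 7.83, 15.3, 10.96 and 0 with anti-JAML. The difference of 2.26 ± 1.39 rested on low counts (adjusted p = 0.989).

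Among the sensors of nucleic acid, Ddx58, which encodes RIG-I, stood at 21.8, 15.9, 20.3 and 22.2 CPM after isotype, 34.5, 71.6, 47.1 and 36.6 with anti-PD-1 and 57.2, 64.03, 33.1 and 22.99 with anti-JAML. Both antibody groups lay above isotype without overlap, by 1.25 ± 0.35 and 1.13 ± 0.35 (adjusted p = 0.856 and 0.327). Ifih1, which encodes the long RNA sensor MDA5, stood at 14.7, 17.2, 18.7 and 8.72 CPM after isotype, 30.3, 55.5, 25.3 and 36.9 with anti-PD-1 and 6.27, 18.8, 36.5 and 41.5 with anti-JAML. The anti-PD-1 libraries were all above isotype (1.32 ± 0.50), and the anti-JAML libraries ran from below the isotype range to above it. Zbp1, a sensor of Z-form nucleic acid that can start necroptosis, stood at 83.6, 78.6, 64.6 and 58.8 CPM after isotype, 90.97, 103, 89.4 and 99.2 with anti-PD-1 and 70.6, 40.5, 69.7 and 46.7 with anti-JAML. Here anti-PD-1 lay above isotype and anti-JAML lay below anti-PD-1, both without overlap.

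The antiviral effectors lay on both sides, with 6 of 7 tested positive after anti-PD-1. Bst2, the tetherin that holds budding virus at the membrane, stood at 50.6, 48.6, 44.7 and 38.3 CPM after isotype, 81.2, 94.2, 59.2 and 76.01 with anti-PD-1 and 33.3, 53.04, 38.8 and 25.8 with anti-JAML. The anti-PD-1 libraries were above all others. The differences from isotype were 0.77 ± 0.24 for anti-PD-1 and -0.29 ± 0.24 for anti-JAML (adjusted p = 0.856 and 0.667). Mx1, a GTPase that traps viral nucleocapsids, stood at 4.68, 15.7, 3.34 and 5.51 CPM after isotype, 26.7, 17.7, 18.05 and 37.9 with anti-PD-1 and 46.1, 2.96, 19.9 and 0.202 with anti-JAML. Its anti-JAML libraries had the widest spread, and the anti-PD-1 libraries parted from isotype by 1.78 ± 1.01. Rsad2, the radical SAM enzyme viperin, stood at 9.44, 1.04, 0 and 0.242 CPM after isotype, 5.74, 9.29, 12.8 and 3.54 with anti-PD-1 and 5.83, 12.96, 4.33 and 10.3 with anti-JAML. It was low everywhere and its groups overlapped.

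The members with negative fold changes after anti-PD-1 were Ly6e, Ifi27l2a, Sp100 and Ifi44. Ly6e stood at 1822, 1928, 2172 and 1950.2 CPM after isotype, 1690.5, 1008, 1731 and 1553 with anti-PD-1 and 2056, 1529.8, 2061 and 1527 with anti-JAML. All anti-PD-1 libraries were below all isotype libraries, by -0.40 ± 0.19 (adjusted p = 0.9). Ifi27l2a stood at 598, 465, 499 and 365 CPM after isotype, 565, 319, 414 and 373 with anti-PD-1 and 589, 113, 439 and 305 with anti-JAML. Its groups overlapped, with a difference of -0.21 ± 0.38 after anti-PD-1.

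In the group of nuclear body and ADP-ribosylation genes, Daxx, a histone chaperone of PML bodies, stood at 13.9, 17.1, 22.8 and 17.8 CPM after isotype, 43.6, 62.00, 39.9 and 44.8 with anti-PD-1 and 27.1, 46.5, 19.98 and 33.7 with anti-JAML. No isotype library reached an anti-PD-1 library, and the difference was 1.41 ± 0.30 (adjusted p = 0.831, and 0.0153 in DESeq2). Trim30a, a TRIM protein that restrains inflammatory signalling, stood at 42.5, 45.6, 35.2 and 41.8 CPM after isotype, 54.4, 66.2, 85.96 and 90.99 with anti-PD-1 and 70.9, 70.6, 62.4 and 71.1 with anti-JAML. Both antibody groups were above isotype without overlap, by 0.85 ± 0.20 and 0.73 ± 0.20 (adjusted p = 0.831 and 0.295, the latter 0.0397 in DESeq2). Parp14, an ADP-ribosyltransferase, stood at 35.4, 28.5, 30.4 and 12.9 CPM after isotype, 44.1, 49.1, 29.8 and 30.1 with anti-PD-1 and 60.7, 21.3, 20.8 and 16.3 with anti-JAML, with overlap throughout.

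**Figure D3:**
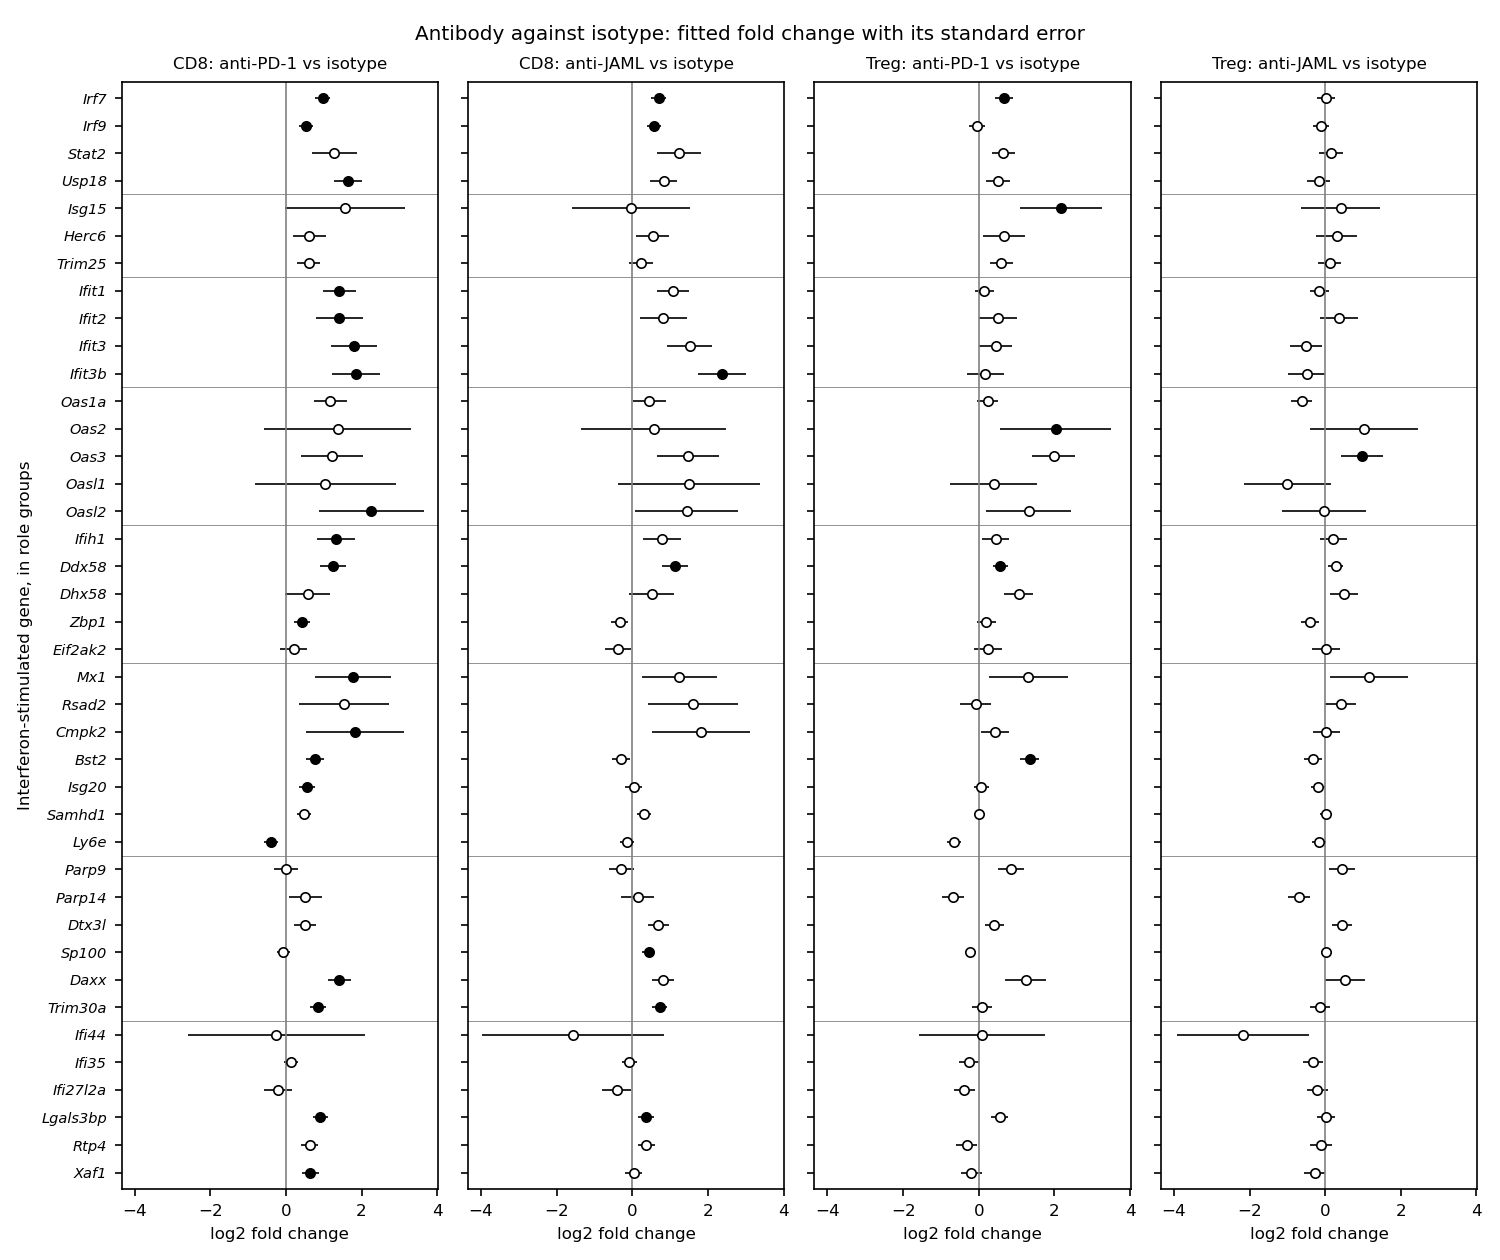
Each point is the log2 fold change of a gene with its SE, for either antibody against isotype, in CD8 cells and in Treg cells; filled points are genes whose groups do not overlap, open points overlap, and a red square would mark an adjusted p under 0.05. In CD8 cells 36 of 40 points lie to the right of 0 after anti-PD-1 and 31 of 40 after anti-JAML; in Treg cells 31 and 21 do, and no comparison has a red square.

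Anti-JAML in CD8 cells gave the same count of calls, 0 of 40 (0% of all genes). Against isotype, 31 members had positive fold changes, compared with 55.3% of all genes, and the median was 0.55, compared with 0.095. The groups did not overlap for 7 higher members, namely Irf7, Sp100, Irf9, Trim30a, Ddx58, Lgals3bp and Ifit3b, against 3.25% of all genes. There were 11 higher members at an unadjusted p under 0.05 (6.85% of all genes). DESeq2 called 2, Trim30a and Ifit3b, and 1.66% of all genes. Without anti-JAML library 3 the groups did not overlap for 11 higher members and 1 lower, against 6.03% and 7.59% of all genes. Without libraries 2 and 4, which stood apart, they did not overlap for 10 higher members, against 9.55% of all genes, and the median was 0.49. The difference in Ifit3b was then 2.17 ± 0.60 (adjusted p = 0.543). Without isotype library 3 the median was 0.60.

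The antibodies were also set against each other in CD8 cells. No member passed the threshold (0 of 40, with 0.00791% of all genes lower and 0% higher). Of the members 32 were on the lower side for anti-JAML, against 49% of all genes, with a median of -0.29, against 0.015. Bst2, Zbp1, Isg15 and Xaf1 were lower without overlap, 4 members, against 3.15% of all genes. Bst2 differed by -1.06 ± 0.24 (adjusted p = 0.135, and 0.00771 in DESeq2, which called 2.07% of all genes), and Zbp1 by -0.76 ± 0.22 (adjusted p = 0.225). On the other side, Sp100, a scaffold of PML bodies, stood at 325, 424, 474 and 369 CPM with anti-PD-1 and 654, 556, 456 and 591 with anti-JAML, a difference of 0.49 ± 0.16 (adjusted p = 0.293). The count lower without overlap was 6 without anti-PD-1 library 3, against 5.51% of all genes, with 1 member higher (4.08%). It was 10 without anti-JAML library 1, against 4.99%. Without anti-JAML libraries 2 and 4 it was 7, against 8.8%, with 1 higher (9.51%), the median was -0.37, and the difference in Zbp1 was -0.45 ± 0.19 (adjusted p = 0.500).

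In Treg cells the members started from higher levels. After anti-PD-1, 0 of 40 passed the threshold (0.0154% of all genes were called higher and 0.0077% lower), 31 had positive fold changes (52.4% of all genes), and the median was 0.42 against 0.044. The groups did not overlap for 5 higher members, Irf7, Oas2, Isg15, Bst2 and Ddx58, against 5.02% of all genes. At an unadjusted p under 0.05, 8 were higher (8.34% of all genes) and 2 lower (5.8%). DESeq2 called 3 members, Bst2, Oas3 and Ly6e, and 4.8% of all genes. Bst2, Ddx58 and Irf7 were the 3 that parted anti-PD-1 from isotype in CD8 cells as well, 7.5% of the 40, against 0.782% of the 11894 genes tested in both populations.

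Bst2 had the smallest p of the members. It stood at 64.8, 72.3, 72.2 and 76.9 CPM after isotype, 118, 251, 158 and 182 with anti-PD-1 and 72.7, 40.7, 57.2 and 59.6 with anti-JAML. Every anti-PD-1 library was above every other Treg library. The difference from isotype was 1.34 ± 0.24 (adjusted p = 0.0705, and 7.7e-05 in DESeq2). It passed the threshold without isotype library 4 (adjusted p = 0.0456) or without anti-PD-1 library 1 (adjusted p = 0.0405). With any other single library left out it did not pass, with adjusted p from 0.0733 to 0.226. With the replicate number as a block the adjusted p was 0.293. Macrophage and monocyte markers moved with the anti-PD-1 group. Their sum was 784, 171, 15.5 and 1228 CPM in the anti-PD-1 libraries and 22.5, 123, 76.1 and 69.7 CPM in the isotype libraries, and 9 of the 12 markers had a higher mean after anti-PD-1. The anti-PD-1 library with the lowest marker sum, 15.5 CPM, had 158 CPM of Bst2. Without libraries 1 and 4, the highest in these markers, the difference was 1.55 ± 0.27 (adjusted p = 0.0623). The 8 plasmacytoid dendritic cell markers listed include Bst2 itself. Of the others, Siglech, Spib, Cox6a2, Klk1 and Ly6d were at 0 in all isotype and anti-PD-1 Treg libraries, while Tcf4 reached 4.63 CPM after isotype and 4.12 after anti-PD-1, and Ccr9 reached 6.01 and 2.53. Genes detected also moved, from 13264 ± 763 after isotype to 14720 ± 500.5 after anti-PD-1 (SD, n = 4). With that number as a covariate, the difference in Bst2 was 1.01 ± 0.33 (adjusted p = 1.0) and the median of the members 0.15. The part of macrophages and monocytes in the values of Bst2 or of the other members was not tested.

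**Figure D4:**
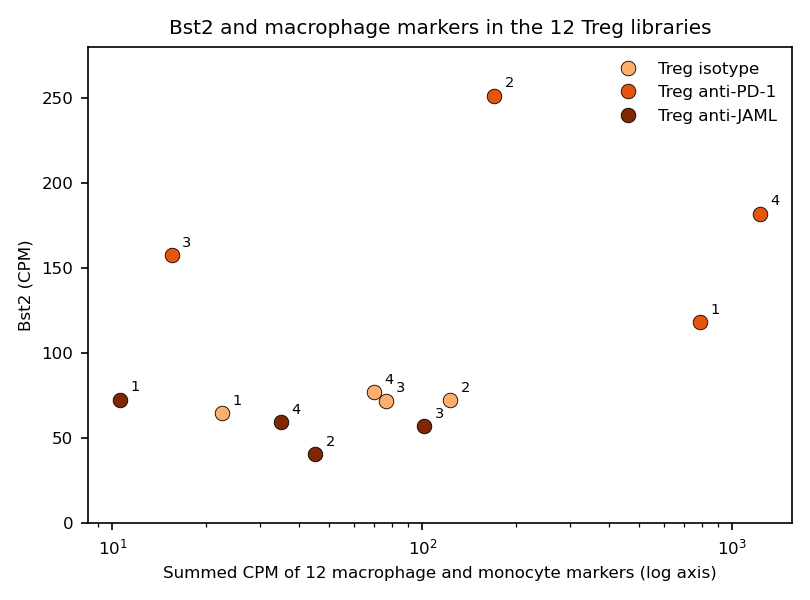
Each point is 1 Treg library, with the summed CPM of 12 macrophage and monocyte markers on a log axis and the CPM of Bst2 on the other. The 4 anti-PD-1 points lie between 118 and 251 CPM of Bst2 over marker sums from 15.5 to 1228 CPM, all above the isotype and anti-JAML points.

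Irf7 stood at 129, 214, 205 and 202 CPM in Treg cells after isotype, 209, 326, 261 and 372 with anti-PD-1 and 249.9, 205, 167 and 139 with anti-JAML. On the scale of the 12 Treg libraries the anti-PD-1 and isotype groups did not overlap, whereas on the printed scale 1 anti-PD-1 library was below the highest isotype library. The difference was 0.67 ± 0.24 (adjusted p = 0.218). Oas3, the large enzyme of the OAS family, stood at 20.5, 14.3, 14.1 and 21.7 CPM after isotype, 15.6, 156, 76.1 and 25.1 with anti-PD-1 and 41.3, 38.1, 27.2 and 32.1 with anti-JAML. A pair of anti-PD-1 libraries carried most of the difference of 1.98 ± 0.57 (adjusted p = 0.161, and 0.0172 in DESeq2). Isg15 stood at 0, 6.40, 5.60 and 7.61 CPM after isotype and 9.20, 46.1, 15.2 and 14.9 after anti-PD-1, without overlap and with 1 library far above the rest (2.16 ± 1.08).

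Ly6e and Parp14 lay on the lower side. Ly6e stood at 5309.6, 6632, 6051 and 4303 CPM after isotype, 4437, 3151, 2598 and 3585 with anti-PD-1 and 4581, 4331, 5257 and 5613 with anti-JAML. The lowest isotype library was below the highest anti-PD-1 library, and the difference was -0.65 ± 0.19 (adjusted p = 0.159, and 0.0150 in DESeq2). Parp14 stood at 109, 119, 108 and 66.5 CPM after isotype, 72.1, 78.4, 51.8 and 41.2 with anti-PD-1 and 47.7, 44.6, 71.8 and 86.2 with anti-JAML, with differences of -0.69 ± 0.29 and -0.69 ± 0.29. With genes detected as a covariate the first was 0.00078. The IFIT family, parted in CD8 cells, overlapped here in 4 of 4 genes, with fold changes from 0.14 to 0.51.

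The other regulators and the sensors are given for completeness of the Treg groups. Irf9 stood at 142, 310.4, 223 and 237 CPM after isotype, 256, 205, 201 and 200.0 following anti-PD-1 and 212, 213, 178 and 243 following anti-JAML. Usp18 stood at 58.6, 62.9, 64.3 and 75.6, 119, 79.7, 46.7 and 114 and 60.9, 59.8, 76.6 and 33.8 CPM in the same order of groups. Stat2 stood at 30.2, 52.8, 63.1 and 77.6, 46.8, 126, 82.2 and 87.9 and 69.3, 58.5, 61.3 and 58.8 CPM. All 3 overlapped between the groups. Zbp1 stood at 175, 238, 172 and 125 CPM after isotype, 221, 269, 134 and 170.4 following anti-PD-1 and 130.1, 116, 143 and 146 following anti-JAML. Ifih1 stood at 30.97, 71.9, 29.1 and 54.1, 28.2, 79.98, 79.4 and 60.1 and 64.8, 42.7, 50.9 and 56.6 CPM. Both overlapped between the groups. Oas1a stood at 105, 98.3, 129 and 68.03, 123, 116, 66.4 and 154 and 53.6, 56.3, 73.1 and 76.7 CPM in that order. Dtx3l, the ligase that partners Parp9, stood at 98.1, 80.1, 62.6 and 65.7, 55.7, 129, 98.2 and 117 and 128, 96.2, 89.6 and 105 CPM. The anti-JAML libraries were mostly low for Oas1a and mostly high for Dtx3l.

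Among genes with low counts, Mx1 stood at 25.7, 15.01, 0 and 10.8 CPM in Treg cells after isotype, 29.3, 51.3, 10.9 and 33.4 following anti-PD-1 and 16.9, 10.2, 31.01 and 57.9 following anti-JAML. Oasl2 stood at 4.15, 0, 46.3 and 14.2, 42.3, 46.7, 25.7 and 42.2 and 11.7, 22.4, 24.9 and 4.47 CPM, and its anti-JAML libraries were all below anti-PD-1. Rsad2 stood at 25.2, 27.00, 19.9 and 16.8, 13.9, 15.9, 12.9 and 39.7 and 39.6, 21.8, 23.96 and 32.8 CPM. In each gene 1 or more isotype libraries lay within the anti-PD-1 range. Ifit3 stood at 42.6, 136, 99.2 and 93.3, 173, 83.8, 85.9 and 146 and 107, 39.5, 79.9 and 32.7 CPM, also with overlap.

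The number of members whose Treg anti-PD-1 and isotype groups did not overlap depended on single libraries. Without isotype library 4 it was 6 higher and 4 lower, against 9.56% and 6.99% of all genes. Without anti-PD-1 library 1 it was 12 higher and 1 lower, against 10.7% and 8.19%. In each case 1 member, Bst2, passed the threshold, with 0.598% and 0.0886% of all genes called higher in turn. Without anti-PD-1 libraries 1 and 4 it was 14 higher and 2 lower, against 18.1% and 11.9% of all genes, since groups of fewer libraries part more readily. There 1 member passed (Oas3, 2.76, adjusted p = 0.0254), with 0.062% of all genes called higher, and the median was 0.24. With this pair left out 24 members had positive fold changes and 16 negative, against 49.1% and 50.2% of all genes.

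After anti-JAML the members of Treg cells stood near isotype. None passed (0 of 40, and 0% of all genes), 21 were positive and 19 negative (51.3% of all genes positive), the median was 0.021 against 0.020, and DESeq2 called 0 members and 0.67% of all genes. At an unadjusted p under 0.05, 0 were higher (3.63% of all genes) and 2 lower (1.76%), Parp14 and Oas1a, the latter by -0.63 ± 0.27 (adjusted p = 0.88). Oas3 was the 1 member without overlap (1.57% of all genes), at 0.97 ± 0.56. Without isotype library 4 it was 1 higher and 4 lower, against 4.98% and 3.65% of all genes. It was 2 higher without isotype library 1 (2.91%), 2 higher without anti-JAML library 4 (3.9%), and 1 higher and 1 lower without anti-JAML library 1 (2.58% and 1.69%). The median without anti-JAML library 4 was 0.046.

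Against anti-PD-1, Treg cells after anti-JAML had 33 of 40 members lower (51.9% of all genes), with a median of -0.38 against -0.028 and 0 calls (0% of all genes). Isg15, Bst2 and Oasl2 were lower without overlap, 3 members (2.2% of all genes), and Sp100 was higher, 1 member (2.37%). Bst2 differed by -1.66 ± 0.24 (adjusted p = 0.122, and 4.3e-07 in DESeq2, which called 0.539% of all genes). Oas1a differed by -0.86 ± 0.27 (adjusted p = 0.698). All 12 macrophage and monocyte markers had a higher mean after anti-PD-1 than after anti-JAML, where their sum ran from 10.6 to 101 CPM, and their part in these differences was not tested. The count lower without overlap was 8 without anti-PD-1 library 1, 8 without anti-PD-1 library 3 and 9 without anti-JAML library 1, against 6.1%, 3.35% and 4.71% of all genes. Without anti-PD-1 libraries 1 and 4 it was 11, against 14% of all genes, with 3 higher (9.54%), and the median was -0.41. Of the 40 members 29 were then on the lower side, against 47.7% of all genes. The difference in Bst2 was then -1.87 ± 0.27 (adjusted p = 0.133) and that in Oas1a -0.53 ± 0.31 (adjusted p = 0.736). Without anti-JAML library 4 the median was also -0.41.

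The largest differences were between the populations. Under isotype, all 40 members were lower in CD8 than in Treg cells (52.4% of all genes were), with a median of -1.64 against -0.060. Of these, 20 passed the threshold, against 7.12% of all genes, and 23 did not overlap, against 11.1%. By role, 4 of 4 regulators, 2 of 4 IFIT genes, 1 of 5 OAS genes, 3 of 5 sensors and 3 of 7 tested effectors were called lower. Leaving out any 1 library gave between 16 and 22 calls, and 18 without CD8 isotype library 3, where the median was -1.65. The shares of all genes called with single libraries left out are not given for this comparison.

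Isg20, an exonuclease that degrades single-stranded RNA, differed most clearly. It stood at 41.04, 36.6, 45.97 and 40.4 CPM in CD8 cells and 312, 278, 367 and 273 in Treg cells after isotype, far apart, with a difference of -2.83 ± 0.16 (adjusted p = 3.1e-05). Samhd1, which depletes the nucleotide pool and so blocks reverse transcription, stood at 176, 199.9, 189.5 and 159.8 and 596, 988, 856 and 825 CPM, a difference of -2.09 ± 0.16 (adjusted p = 0.00013). Ifi27l2a stood at 2921, 3384, 3185 and 1711 CPM in Treg cells, above every CD8 library, by -2.47 ± 0.25 (adjusted p = 0.00041). In the deposited TPM it had 2233 in CD8 cells and 13117 in Treg cells after isotype.

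Ifit1 stood at 84.1, 115, 154 and 134 CPM in Treg cells after isotype, 176, 94.3, 112 and 141 with anti-PD-1 and 140.4, 109, 81.5 and 106 with anti-JAML, all above every CD8 library. CD8 cells were lower by -2.80 ± 0.26 under isotype and -1.50 ± 0.28 after anti-PD-1 (adjusted p = 0.00027 and 0.0131). Irf7 was lower in CD8 cells by -1.71 ± 0.20 and -1.37 ± 0.20 (adjusted p = 0.00084 and 0.0037). Usp18 was lower by -1.67 ± 0.29 under isotype (adjusted p = 0.0057), and after anti-PD-1 the difference was -0.50 ± 0.34 (adjusted p = 0.398).

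**Figure D5:**
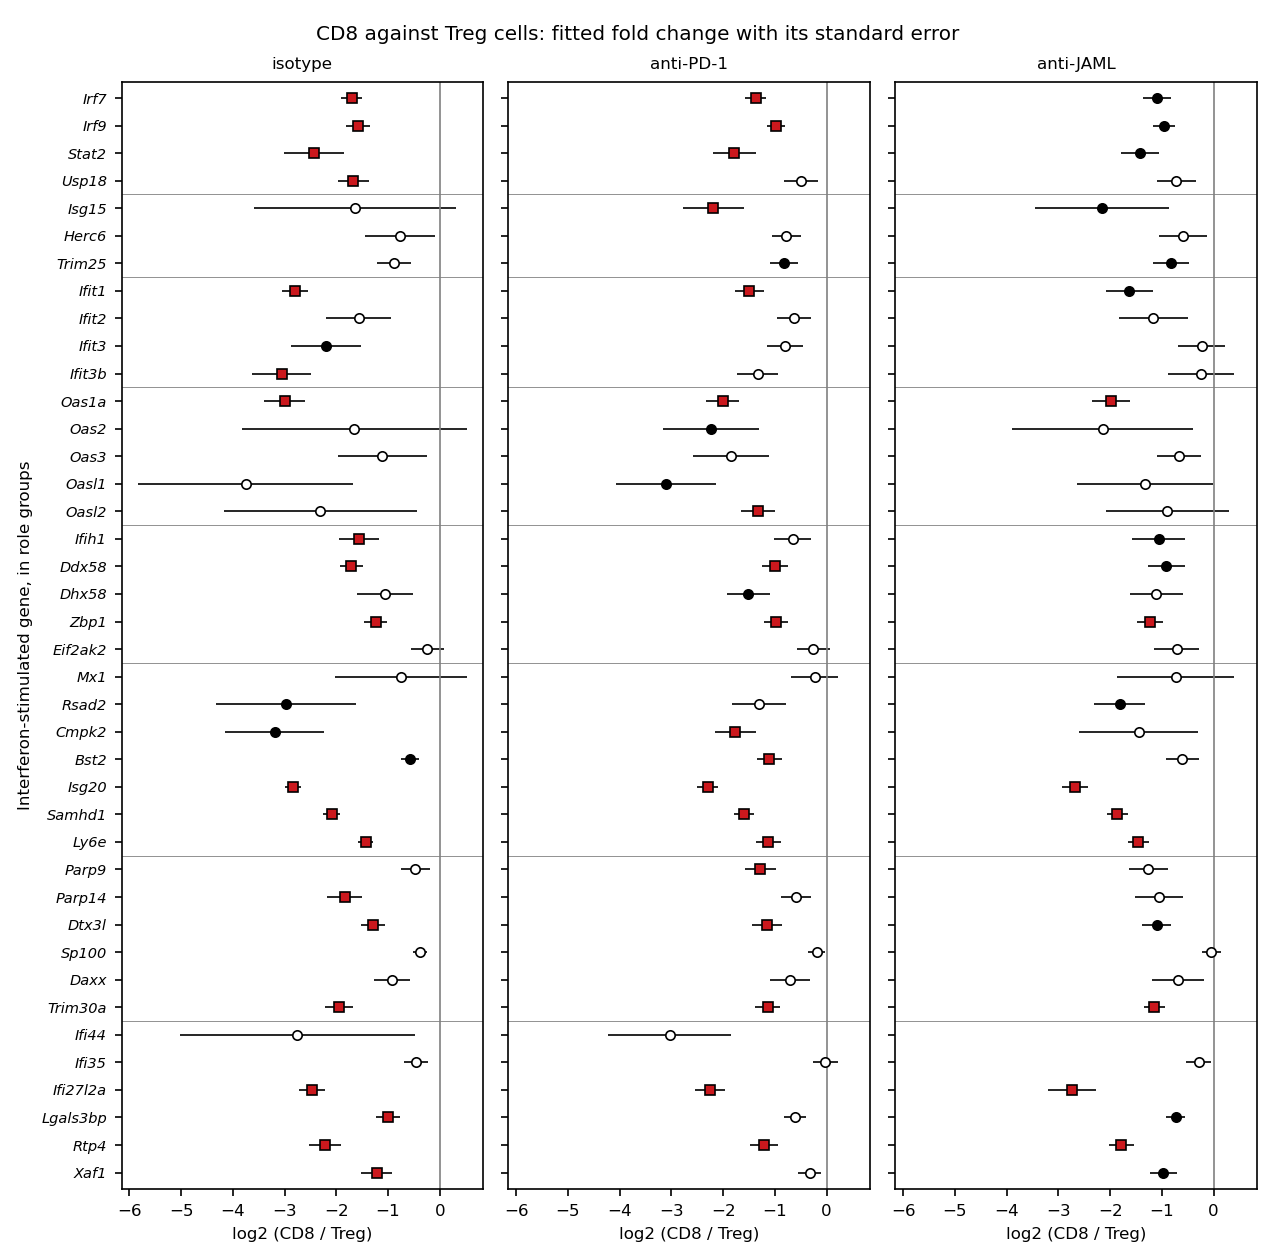
Each point is the log2 fold change of a gene, CD8 over Treg cells, with its SE, by antibody (isotype, anti-PD-1, anti-JAML); red squares have an adjusted p under 0.05, filled points are other genes whose groups do not overlap, and open points overlap. All points lie to the left of 0, with 20, 19 and 8 red squares in turn.

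After anti-PD-1 all 40 members were again lower in CD8 cells (52.4% of all genes), with a median of -1.15 against -0.050. Here 19 passed, against 4.21% of all genes, and 22 did not overlap, against 8.87%. The count of calls rested on single libraries. It was 7 without Treg library 2, 7 without Treg library 4, 8 without CD8 library 1, 12 without CD8 library 3 and 9 without CD8 library 4, against 1.96%, 2.16%, 1.9%, 2.48% and 1.98% of all genes. Without Treg libraries 1 and 4 together it was 16, against 4.54%, and Zbp1, Oasl2 and Ly6e were no longer called (adjusted p = 0.0520, 0.1002 and 0.0663). The median was then -0.999, and 38 of 40 members were on the lower side (50.5% of all genes). Lower without overlap were 29 members, against 21.7% of all genes.

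After anti-JAML the 39 members tested were all lower in CD8 cells (51.4% of all genes), with a median of -1.09 against -0.025. Ifi44 was not tested, because too few libraries passed the filter on low counts. There were 8 calls, against 1.35% of all genes, namely Isg20, Samhd1, Rtp4, Ly6e, Ifi27l2a, Trim30a, Oas1a and Zbp1, and 20 members did not overlap, against 7.23%. These 8 were called under isotype and after anti-PD-1 as well, 20.5% of the 39, against 0.915% of the 11035 genes tested in all 3 comparisons. DESeq2 called 17 (6.25% of all genes). The count was 5 without any 1 of Treg libraries 1, 2, 3 and 4, against 0.685%, 0.448%, 0.745% and 0.644% of all genes. It was 5 without CD8 library 4 (0.973%), 4 without CD8 library 3 (0.608%), and 5 without CD8 libraries 2 and 4 (1.27%), where Zbp1 was no longer called (adjusted p = 0.0906). The median was -1.10 without that pair and -1.13 without Treg library 4. Without the pair 39 members were on the lower side and 1 on the higher (55.4% of all genes lower). Lower without overlap were 25 members, against 14.7% of all genes.

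Whether the antibodies acted differently in the populations was tested as an interaction over the 24 libraries. No member passed for either antibody (0% of all 14591 genes). For anti-PD-1 the median interaction was 0.44, against -0.065 for all genes, and 30 of 40 were positive, meaning a larger fold change in CD8 cells (46.3% of all genes). Ifit1 had the smallest p, with 1.24 ± 0.49 (adjusted p = 0.651). Rtp4 was next, with 0.93 ± 0.39. It stood at 103, 89.8, 76.8 and 73.02 CPM after isotype and 144, 134, 169 and 81.8 with anti-PD-1 in CD8 cells, and at 519.6, 571, 361 and 213 and 403, 324, 225 and 343 in Treg cells. On the other side Parp9, an ADP-ribosyltransferase, had -0.88 ± 0.47. It stood at 26.8, 50.7, 62.96 and 49.6 CPM after isotype, 40.4, 65.1, 44.6 and 39.3 with anti-PD-1 and 25.4, 45.8, 29.1 and 56.6 with anti-JAML in CD8 cells. In Treg cells it stood at 71.02, 56.3, 85.8 and 63.4, 63.1, 184, 132 and 109 and 142, 111, 56.2 and 68.3 CPM in that order, with overlap between the groups of either population. For anti-JAML the median was 0.39 against -0.036, and 32 of 40 were positive (48.5% of all genes). Ifit3b had the smallest p, with 2.84 ± 0.81 (adjusted p = 0.368, and 0.0205 in DESeq2, which called 1.94% of all genes). On the other side were Parp9 (-0.77 ± 0.47) and Eif2ak2, the kinase PKR that halts translation (-0.45 ± 0.52). Eif2ak2 stood at 29.04, 23.7, 21.4 and 37.4 CPM after isotype and 19.9, 18.9, 31.7 and 15.8 with anti-JAML in CD8 cells, and at 32.2, 34.3, 20.99 and 52.1 and 30.5, 16.1, 45.5 and 49.9 in Treg cells, overlapping in both. Without Treg anti-PD-1 libraries 1 and 4 the anti-PD-1 median was 0.50, against 0.031 for all genes, with 28 of 40 positive, and Ifit1 had 1.61 ± 0.56 (adjusted p = 0.631). Without CD8 anti-JAML libraries 2 and 4 the anti-JAML median was 0.38, against -0.096, with 28 of 40 positive, and Ifit3b had 2.62 ± 0.79 (adjusted p = 0.690). The anti-JAML median was 0.37 without Treg anti-JAML library 4 and 0.39 without CD8 isotype library 3, and the anti-PD-1 median was 0.43 without the latter.

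The genes with the motif printed above and those without it are given side by side as a description. After anti-PD-1 in CD8 cells the median was 1.35 for the 10 with it, 10 of which were positive, and 0.63 for the 20 tested without it, 18 of which were positive. With CD8 isotype library 3 left out these medians were 1.14 and 0.66. Between CD8 and Treg cells under isotype the medians were -2.31 and -1.56, and -2.34 and -1.55 without that library. After anti-PD-1 in Treg cells they were 0.34 and 0.42, so the order of the sets differed there. Without Treg anti-PD-1 libraries 1 and 4 they were 0.025 and 0.50.

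The rest of the pathway was read from lists of its steps. Of 18 type I interferon genes, 12 were at 0 in all 24 libraries, and the other 6 had counts in 7 libraries in all, at most 1.16 CPM, for Ifne. Of 15 receptor and signalling genes, 0 were called in any antibody comparison. Called lower in CD8 than in Treg cells were 5 under isotype, 4 with anti-PD-1 and 2 with anti-JAML, against 7.12%, 4.21% and 1.35% of all genes. The first was 3 without CD8 isotype library 3, where the share of all genes is not given. The second was 3 without Treg anti-PD-1 libraries 1 and 4 (4.54% of all genes). The third was 1 without Treg anti-JAML library 4 (0.644%). The receptor chains Ifnar1 and Ifnar2 were among those lower under isotype, by -1.24 ± 0.32 and -1.07 ± 0.25 (adjusted p = 0.0300 and 0.0198), and neither was called with the other antibodies (-0.68 ± 0.45 and -0.72 ± 0.24 with anti-PD-1, adjusted p = 0.390 and 0.0982). In CD8 cells after anti-JAML, Ifnar2 lay above isotype without overlap, by 0.99 ± 0.28 (adjusted p = 0.298).

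A further 48 interferon-induced genes outside the 41 were listed, and 0 were called in any antibody comparison. In CD8 cells 38 of 45 tested were positive after anti-PD-1, with a median of 0.47, and 36 of 45 after anti-JAML, with a median of 0.59. In Treg cells 23 of 47 were positive after anti-PD-1 (median -0.035) and 13 of 47 after anti-JAML (median -0.11). Without CD8 anti-JAML libraries 2 and 4 the CD8 anti-JAML median was 0.42, and without Treg anti-PD-1 libraries 1 and 4 the Treg anti-PD-1 median was -0.0996. Between the populations under isotype, 42 of 45 were on the lower side in CD8 cells, and 20 were called lower, against 7.12% of all genes. Ms4a4c was called higher (8.21% of all genes), and was not called without CD8 isotype library 3. With anti-PD-1 12 of 47 were called lower (4.21% of all genes), and with anti-JAML 5 of 44 (1.35%), with Ms4a4c called higher (0.728%). Without Treg anti-JAML library 4 the last comparison had 4 called lower (0.644%) and 0 called higher (0.366%). Ifng, which encodes the type II interferon, was higher in CD8 than in Treg cells, by 3.05 ± 0.34 under isotype (adjusted p = 0.00064) and 3.46 ± 0.40 after anti-PD-1 (adjusted p = 0.0012).

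Within groups the members varied largely on their own. The mean correlation between pairs of the 40, over deviations from the group means in 24 libraries, was 0.065, against 0.0080 over all 14591 genes. The closest pairs were Ifi27l2a with Xaf1, a promoter of apoptosis (r = 0.84), Xaf1 with Rtp4 (r = 0.80) and Oas3 with Stat2 (r = 0.76). These points share libraries and their depth.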

How the data were processed

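Bulk Smart-seq2 RNA-seq of 24 libraries was analysed. The authors deposited raw read counts per gene and TPM. STAR 2.7.3a, deepTools 3.3.1, fastp 0.20.1 and SAMtools are named, per the submitters' processing notes. Which counter, strand setting and annotation made the counts is not given in the sources used here. Columns named antiAMICA1 hold the anti-JAML libraries, AMICA1 being an older name of JAML.

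Deposited counts were tested with edgeR 4.0.16 (R 4.3.3, quasi-likelihood F test with robust fit, TMM scaling). Low genes were removed with filterByExpr (min.count 10, min.total.count 15), and p-values were adjusted by Benjamini-Hochberg over all genes tested, with a threshold of 0.05. Antibody comparisons used the 12 libraries of a population, CD8 against Treg comparisons the 8 libraries of an antibody, and interactions all 24. SE is the fold change divided by the root of F. The deposited TPM served only to compare levels between genes. Scripts were tested on simulated data. The alternatives were DESeq2 1.42.0, RLE scaling, no filter on low counts, a replicate block, genes detected as a covariate, each library left out in turn, and the libraries that stood apart left out.

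The members and the pathway and marker lists were chosen with earlier results of these data known. Genes given with values in every library were 16 set members, and in each comparison the 2 members with the smallest p in each direction. 1 gene of the pathway lists is not reported here by name. Ddx58 is given the same way but was chosen after its values were seen. Total counts per library limit the precision of low genes, and limits for counts of 0 cover counting error only. Sequences are RefSeq's (GRCm38.p6). Gene positions are those of GENCODE M21, where 39 of the 41 identifiers had the same version.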

Additional observations from a re-analysis of the deposited data

Results flagged for a closer look

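Within each group of 4 libraries, the gap of the highest or lowest library to its neighbour was compared with the range of the group for the genes given library by library and for the mean over the members. Of 180 such groups, 10 held a library far from the other 3, and chance flags about 1 in 20 groups. Irf7 had 128.8 CPM in Treg isotype library 1, against 202 to 214 in the others. Daxx had 16.7 CPM in Treg isotype library 1, against 40.998 to 44.7. Irf9 had 256 CPM in Treg anti-PD-1 library 1, against 200.04 to 205. Isg15 had 46.1 CPM in Treg anti-PD-1 library 2, against 9.20 to 15.2. Rsad2 had 39.7 CPM in Treg anti-PD-1 library 4, against 12.9 to 15.9, and 9.44 CPM in CD8 isotype library 1, against 0 to 1.04. Isg15 had 0 CPM in CD8 anti-JAML library 4, against 1.82 to 2.07. Trim30a had 62.4 CPM in CD8 anti-JAML library 3, against 70.6 to 71.1, and Ddx58 had 118 CPM in Treg anti-JAML library 1, against 70.9 to 75.04. Parp14 had 60.7 CPM in CD8 anti-JAML library 1, against 16.3 to 21.3.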

How the results depend on the processing

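Low counts limit Isg15, Oasl1, Oasl2, Oas2, Ifi44 and Rsad2, which were at 0 in some libraries, and 4 libraries a group limit every comparison. Directions of the member medians stayed the same under all alternatives run, except for anti-JAML against isotype in Treg cells, which ran from -0.028 to 0.034, and from -0.093 to 0.075 with single libraries left out. DESeq2 called more members, given here with the share of all genes. In CD8 cells there were 4 for anti-PD-1 against isotype (0.174%) and 2 for anti-JAML against isotype (1.66%). Anti-JAML against anti-PD-1 gave 1 there (2.07%). In Treg cells there were 3 for anti-PD-1 against isotype (4.8%) and 1 for anti-JAML against anti-PD-1 (0.539%). CD8 against Treg cells after anti-JAML gave 17 (6.25%), and the anti-JAML interaction gave 1 (1.94%). With genes detected as a covariate the Treg anti-PD-1 median was 0.15, and Parp14 there turned to 0.00078; the cause was not tested. Leaving out Treg anti-PD-1 libraries 1 and 4 gave 1 call against isotype, with 0.062% of all genes called higher. Without overlap were 16 members against isotype, where 18.1% of all genes were higher and 11.9% lower. Against anti-JAML 14 members did not overlap, where 9.54% of all genes were higher and 14% lower. Leaving out CD8 anti-JAML libraries 2 and 4 gave 8 members without overlap against anti-PD-1, where 9.51% of all genes were higher and 8.8% lower. It gave 5 calls against Treg cells, with 1.27% of all genes called lower. Of 64 named differences that hold these pairs of libraries, 64 kept their sign without the pair and 11 moved by over 1.5 times.

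Leaving out 1 library at a time gave 0 to 1 calls for Treg anti-PD-1 against isotype. The 1 call came with 0.598% or 0.0886% of all genes called higher. For CD8 against Treg cells there were 7 to 23 calls after anti-PD-1 and 4 to 9 after anti-JAML. At the lower ends 1.96% or 2.16%, and 0.608%, of all genes were called lower. The shares at the upper ends are not given here. Members without overlap ran from 7 to 12 for CD8 anti-JAML against isotype and 4 to 10 for CD8 anti-JAML against anti-PD-1. At the upper ends 6.03% and 4.02% of all genes were higher and 7.59% and 4.99% lower. In Treg cells they ran from 5 to 13 for anti-PD-1 against isotype, 1 to 5 for anti-JAML against isotype and 3 to 10 for anti-JAML against anti-PD-1. There 10.7%, 4.98% and 5.26% of all genes were higher at the upper ends, and 8.19%, 3.65% and 6.1% lower.

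Whether replicate numbers pair the libraries was not settled. Over 60 same-numbered pairs the correlation of deviations ran from -0.18 to 0.15, and 3 were over 0.1. In 20 of the 60 a library correlated best with its own number, out of 4 numbers. Most of these pairs join different antibodies, and those cannot show whether a CD8 and a Treg library came from the same tumour. For CD8 and Treg libraries of the same antibody the correlation ran from -0.084 to 0.129, both with anti-PD-1. Whether these came from the same tumour was not settled either. With the replicate number as a block, CD8 against Treg cells gave 18 calls under isotype, 18 for anti-PD-1 and 5 for anti-JAML. All were lower in CD8 cells, against 4.08%, 4.04% and 0.561% of all genes. The antibody comparisons gave 0 (0% of all genes).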
